A study of Mus musculus with 2 samples.

Results

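Cholesterol synthesis was followed through 8 genes in germ cells of the foetal mouse gonad: Hmgcs1, Idi1, Fdps, Sqle, Lss, Cyp51, Insig1 and Srebf2. The members were the rows of the count table whose Ensembl identifiers carry these symbols, and all 8 were found among its 42422 genes and passed the filter on low counts, as did 15252 genes in all. A wider list of 40 cholesterol pathway genes, which contains the 8, was read beside them.

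The cells were Oct4-eGFP-positive germ cells, sorted by flow cytometry from gonads of E12.5 embryos of Oct4-eGFP 129T2svJ males and Swiss females, all labelled wild type, and each replicate was a pool of gonads. Gonads were taken at once (0 h, XX and XY) or cultured with the mesonephros, which was removed after culture, in medium with 10% foetal calf serum. XX gonads were cultured in DMSO for 24 h or 72 h, and XY gonads in DMSO or in an inhibitor for the same times. The inhibitors, each at 500 nM, were BGJ398/Infigratinib, which blocks FGF receptors (FGFRi), and PD0325901/Mirdametinib, which blocks the kinases MEK1/2 (MEKi). The design gave 10 groups of 4 libraries. As both inhibitors acted on whole gonads, the somatic cells were exposed along with the germ cells.

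Libraries were sequenced as 2 pools, each with 20 of the 40. Both 0 h groups, both 24 h DMSO groups and XY 24 h MEKi were in pool 1, and XY 24 h FGFRi and every 72 h group in pool 2. In both DMSO comparisons of 72 h v 24 h, and in FGFRi v DMSO at 24 h, pool and condition therefore cannot be told apart, whereas XY FGFRi at 72 h v 24 h lay within pool 2. Total counts ranged from 1178953 to 5199153 per library, and a member had between 2 and 1020 counts in a library (median 140.5). Each of 16 pool 1 libraries shared its sample index with a pool 2 library, and from Y-linked counts in XX libraries the share of counts that crossed was estimated at 3.25%. Subtracting that share from the pool 1 libraries left every call on the 8 genes as it was. Crossing from pool 1 into the pool 2 libraries was not estimated or subtracted. All 6 germ cell markers examined (Ddx4, Dazl, Pou5f1, Dppa3, Dnd1 and Mael) were present, with summed levels of 2070 to 5611 CPM (counts scaled to a common library total) over the libraries.

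Animal cells make cholesterol from acetyl units by way of mevalonate, isoprenoid units, squalene and lanosterol, and take it up from lipoproteins. Most genes of the route are under one control: SREBP-2, the product of Srebf2, is held in the endoplasmic reticulum with SCAP and INSIG proteins while sterol is plentiful, and is cleaved and sent to the nucleus when sterol falls. In the nucleus it binds sterol regulatory elements in promoters, usually beside NF-Y and Sp1 sites. Germ cells of the foetal gonad proliferate at E12.5 and then enter mitotic arrest in XY gonads or meiosis in XX gonads.

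By position in GRCm39, the early enzymes are Hmgcs1 (HMG-CoA synthase, chr13:120151915-120170470, plus strand), Idi1 (isopentenyl diphosphate isomerase, chr13:8935537-8942487, plus strand) and Fdps (farnesyl diphosphate synthase, chr3:89000888-89019213, minus strand). The sterol enzymes are Sqle (squalene epoxidase, chr15:59186869-59203043, plus strand), Lss (lanosterol synthase, chr10:76367298-76392976, plus strand) and Cyp51 (lanosterol demethylase, chr5:4123416-4154751, minus strand). The regulators are Insig1 (which retains the SREBP complex, chr5:28276315-28283668, plus strand) and Srebf2 (chr15:82031382-82093201, plus strand).

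Of the 8 genes, 6 had a promoter in the RefSeq table (GRCm38.p6, 250 bases before to 50 after the gene start), and Fdps and Sqle were not among them. Both strands of each window were searched for a sterol regulatory element TCACNCCAC, its core CACNCCAC (contained in the first), an NF-Y box CCAAT and an Sp1 box GGGCGG. The NF-Y box was in all 6 windows, against 37.4% of the 32851 promoters in the table, and the Sp1 box was also in all 6, against 35.7%. The longest motif was found only in Hmgcs1, 137 bases before the start, among these 6, and in 1.24% of all promoters. The core was in Hmgcs1 and in Insig1, and in 6.24% of all promoters. Idi1 had 2 NF-Y boxes and 1 Sp1 box, and Lss had 1 and 2. Among the other pathway genes in the table, 18 of 23 had the NF-Y box, 19 the Sp1 box, 1 the core and 0 the longest motif. A match is a run of letters and not a measured site. The 250 bases before the start are given, with matches in capitals, for the gene with the longest motif (Hmgcs1, chr13:119690101-119690350, plus strand), the other gene with the core (Insig1, chr5:28071162-28071411, plus strand), the gene of the 8 that changed most under MEKi (Cyp51, chr5:4104698-4104947, minus strand) and the one that differed most between the sexes at 72 h (Srebf2, chr15:82147019-82147268, plus strand).
Hmgcs1: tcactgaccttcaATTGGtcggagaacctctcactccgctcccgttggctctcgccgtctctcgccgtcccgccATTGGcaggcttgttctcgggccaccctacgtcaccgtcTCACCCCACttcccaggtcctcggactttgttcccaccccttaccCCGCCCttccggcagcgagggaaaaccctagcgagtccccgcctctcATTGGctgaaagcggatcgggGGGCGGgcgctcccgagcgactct
Insig1: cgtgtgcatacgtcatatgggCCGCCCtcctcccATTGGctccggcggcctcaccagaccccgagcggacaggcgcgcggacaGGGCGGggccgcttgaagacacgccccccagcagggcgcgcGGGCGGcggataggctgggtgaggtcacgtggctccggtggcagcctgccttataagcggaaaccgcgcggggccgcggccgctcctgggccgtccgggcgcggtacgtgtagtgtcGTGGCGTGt
Cyp51: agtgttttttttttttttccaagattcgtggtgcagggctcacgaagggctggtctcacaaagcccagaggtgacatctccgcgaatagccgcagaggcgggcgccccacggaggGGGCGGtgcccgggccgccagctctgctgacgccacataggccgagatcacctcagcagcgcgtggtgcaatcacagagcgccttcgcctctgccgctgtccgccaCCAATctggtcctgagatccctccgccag
Srebf2: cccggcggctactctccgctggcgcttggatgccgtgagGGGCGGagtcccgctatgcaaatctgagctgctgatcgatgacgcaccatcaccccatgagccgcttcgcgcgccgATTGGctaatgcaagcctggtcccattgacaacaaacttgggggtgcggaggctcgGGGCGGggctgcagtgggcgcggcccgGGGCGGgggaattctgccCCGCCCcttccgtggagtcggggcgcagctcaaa

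Levels are given in CPM after TMM scaling, and are compared between groups and not between genes. Each of the 8 genes had its highest group mean at 24 h, and 7 had their lowest in a 72 h group, with Insig1 the exception. The 0 h groups did not always lie between: Srebf2 in XY 0 h was below every XY 72 h group, and Lss in XX 0 h (27.1 CPM) below XX 72 h DMSO (31.3 CPM). For Hmgcs1 the group means ran from 278 ± 20 CPM (SD, n = 4) in XY 24 h MEKi to 65.4 ± 11.2 CPM in XX 72 h DMSO. In that order only the step from XY 0 h (180.0 CPM) down to XY 72 h MEKi (135 CPM) separated neighbouring groups whose libraries did not overlap. For Cyp51 the means ran from 116 ± 10 CPM in XY 24 h MEKi to 12.4 ± 2.5 CPM in XY 72 h FGFRi, with 3 such steps, below XY 24 h DMSO, XX 0 h and XY 72 h DMSO. Sqle also had 3, below XY 24 h FGFRi, XX 0 h and XY 72 h DMSO, and its lowest mean was 41.4 ± 1.2 CPM in XY 72 h FGFRi. Fdps had 1, between XY 72 h DMSO (20.8 ± 5.7 CPM) and XX 72 h DMSO (14.01 ± 0.51 CPM). Srebf2 had 1, between XY 0 h (54.6 ± 5.9 CPM) and XX 72 h DMSO (22.5 ± 1.8 CPM), so its other 9 groups formed an unbroken series up to 84.9 ± 16.3 CPM in XY 24 h DMSO. Neighbours of Idi1, Lss and Insig1 overlapped at every step. Idi1 was the lowest in counts, with 2 to 7 counts per library in XX 72 h DMSO.

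**Figure D1:**
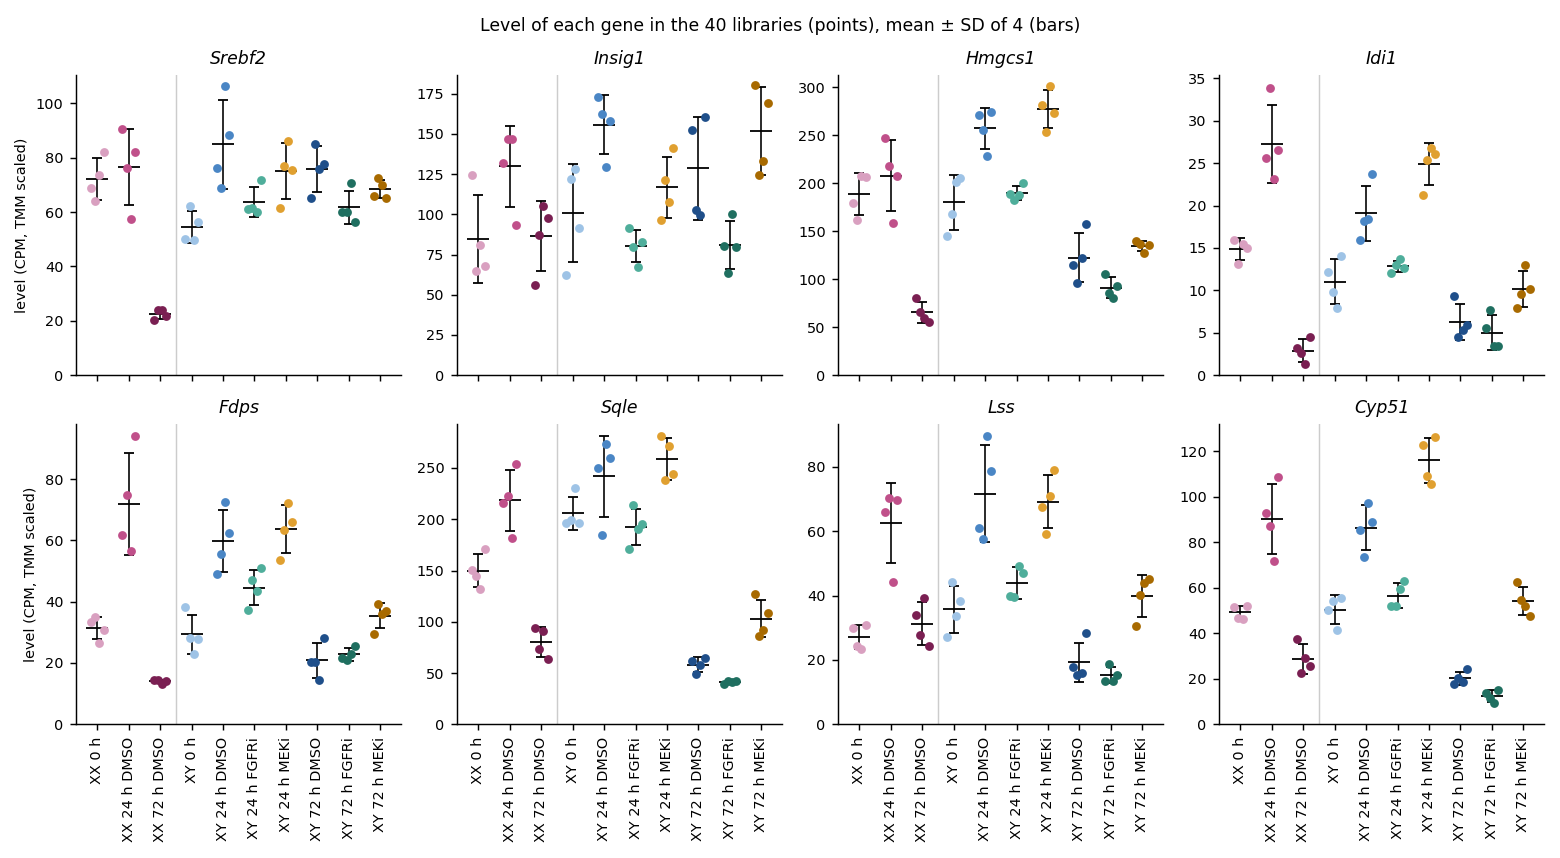
Level of each of the 8 genes (vertical axis, CPM after TMM scaling, starting at 0) in the 10 groups (horizontal axis). Points are libraries, and bars are the mean and SD of 4. Srebf2 in XX 72 h DMSO lies between 20.2 and 24.1 CPM, below every other library, while Cyp51, Sqle and Lss are low in XY 72 h DMSO and FGFRi and higher in XY 72 h MEKi.

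The first 24 h of culture were compared with uncultured germ cells, within pool 1. In XY germ cells, all 8 genes had positive log2 fold changes, with a median of 0.70 against 0.02 over all genes tested. None was called higher by the main test, which asks for a change beyond 1.5-fold at a false discovery rate (FDR) under 0.05, and which called 1.61% of all genes higher and 1.33% lower. A test of any change (limma eBayes, called the no-change test here) passed 7 of the 8, all but Sqle, and 11.9% of all genes were higher by it. Fdps levels were 38.4, 28.1, 23.0 and 27.7 CPM at 0 h and 49.0, 55.4, 72.5 and 62.4 CPM at 24 h. The groups did not overlap, and the log2 fold change was 1.04 ± 0.16 (SE; limma treat FDR = 0.0737). Lss followed with 0.96 ± 0.15 and Idi1 with 0.87 ± 0.21. Sqle was already 206 ± 16 CPM at 0 h and was 242 ± 39 CPM at 24 h. Summed markers of other gonadal cells moved over this step in XY without overlap. Pre-granulosa markers went from 6.11 to 13.3 CPM at 0 h to 18.5 to 33.0 CPM at 24 h. Lower at 24 h were the sums for Leydig cells (17.2 to 26.6 CPM, then 6.50 to 12.9 CPM), interstitial cells (28.1 to 93.9 CPM, then 16.4 to 23.3 CPM) and endothelium (97.4 to 113 CPM, then 30.6 to 94.3 CPM). Their part in the values of the 8 genes was not tested.

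In XX germ cells, Fdps and Lss rose, 2 of 8 against 2.32% of all genes called higher and 0.911% lower. Fdps was 33.4, 34.9, 26.6 and 30.8 CPM at 0 h and 61.8, 74.7, 56.6 and 94.0 CPM at 24 h, a log2 fold change of 1.26 ± 0.15 (FDR = 0.00122). Lss was 29.9, 24.2, 23.5 and 30.8 CPM at 0 h and 65.9, 70.5, 44.3 and 69.8 CPM at 24 h, a log2 fold change of 1.27 ± 0.16 (FDR = 0.00484). Every 24 h library was above every 0 h library for both genes. All 8 values were again positive (median 0.80, against 0.05 over all genes), and 6 passed the no-change test, against 16.3% of all genes. Hmgcs1 (0.14, 95% interval −0.09 to 0.37) and Srebf2 (0.09, −0.15 to 0.33) did not. The sexes were also compared in this step directly, and none of the 8 passed either test (0.452% of all genes were called, and 9.88% passed the no-change test). The unadjusted 95% intervals of that difference (XY minus XX) lay above 0 for Srebf2 (0.51, 0.16 to 0.86, FDR = 0.0519 by limma eBayes) and Hmgcs1 (0.42, 0.09 to 0.74, FDR = 0.0903), and the interval was widest for Idi1, from −0.59 to 0.53. In XX the marker sums of each of the other cell types overlapped between 0 h and 24 h.

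Among the other 31 pathway genes tested, 3 rose and 0 fell over 24 h in XY (1.61% and 1.33% of all genes), and 7 rose and 0 fell in XX (2.32% and 0.911%). Those called in both sexes were Mvk (mevalonate kinase, 1.17 in XY and 1.27 in XX) and Hsd17b7 (a sterol ketone reductase, 1.24 and 1.25). Dhcr7, a dehydrocholesterol reductase, rose in XY (1.11). Acat2 (1.24), Pmvk (1.30), Mvd (1.31) and Nsdhl (1.34) were called in XX, with Insig2 (1.26), the relative of Insig1. In XX, 5 of the 8 genes of the mevalonate steps were thus called, counting Fdps.

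The 6 enzymes dropped between 24 h and 72 h. In XY DMSO, 6 fell (11.3% of all genes were called lower and 16.0% higher). Cyp51 was 85.6, 73.5, 97.4 and 88.8 CPM at 24 h and 17.7, 20.3, 18.4 and 24.3 CPM at 72 h, a log2 fold change of −2.12 ± 0.16 (FDR = 2.89e-11). Sqle was 250.1, 185, 274 and 259 CPM at 24 h and 61.5, 48.8, 58.0 and 65.1 CPM at 72 h, a change of −2.08 ± 0.13 (FDR = 5.46e-14). Every 24 h library was well above every 72 h library for both genes. Lss (−1.98 ± 0.20), Idi1 (−1.64 ± 0.27), Fdps (−1.55 ± 0.18) and Hmgcs1 (−1.12 ± 0.12) also fell. None of the 6 had overlapping groups, but the share of all genes without overlap was not counted.

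Srebf2 and Insig1 stood apart from the 6 enzymes here. Srebf2 was 76.3, 68.9, 106 and 88.2 CPM at 24 h and 65.0, 85.1, 75.7 and 77.6 CPM at 72 h in XY DMSO. Insig1 was 173, 163, 129.6 and 158 CPM at 24 h and 152, 103, 99.5 and 160.4 CPM at 72 h. Both groups overlapped, and neither gene passed either test, at −0.18 (95% interval −0.42 to 0.06) for Srebf2 and −0.30 (−0.65 to 0.04) for Insig1.

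XY FGFRi gonads gave the same comparison within one pool. The same 6 enzymes fell (14.2% of all genes were called lower and 19.2% higher). Sqle went from 171, 214, 190.0 and 195 CPM to 39.6, 42.2, 41.6 and 42.2 CPM, a log2 fold change of −2.22 ± 0.13 (FDR = 6.62e-16), and Cyp51 changed by −2.16 ± 0.17 (FDR = 2.51e-11). Lss changed by −1.54 ± 0.19, Idi1 by −1.25 ± 0.27, Hmgcs1 by −1.03 ± 0.12 and Fdps by −1.01 ± 0.17. Srebf2 (−0.05, 95% interval −0.31 to 0.21) and Insig1 (−0.02, −0.41 to 0.37) passed neither test. This comparison leaned more on scaling than the others: with library totals in place of TMM, all genes shifted up by 0.29 in the median (0.07 under TMM), and 3 of the 6 calls were left (Sqle, Lss and Cyp51). Idi1 and Fdps also lost their calls with DESeq2 (−1.19 and −0.91) and with RLE size factors (−1.17 and −0.93), and Fdps and Hmgcs1 without the filter (−0.87 and −0.94). Idi1 lost its call without XY 24 h FGFRi replicate 4 or XY 72 h FGFRi replicate 2 or 5 (−1.22, −1.21 and −1.10), and Fdps without XY 24 h FGFRi replicate 3 or 5 or XY 72 h FGFRi replicate 2 or 4 (−0.94 to −0.99).

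In XX DMSO, 7 of the 8 fell (11.9% of all genes were called lower and 10.3% higher). Idi1 was 25.7, 33.8, 23.1 and 26.6 CPM at 24 h and 3.19, 2.56, 1.33 and 4.49 CPM at 72 h, a log2 fold change of −3.09 ± 0.37 (FDR = 1.13e-07). With the counts of its pseudogene copies added, the Idi1 value was −2.39 ± 0.28 and remained called. Fdps changed by −2.35 ± 0.22, Cyp51 by −1.69 ± 0.16, Hmgcs1 by −1.68 ± 0.14 and Sqle by −1.51 ± 0.13. Srebf2, unlike in XY, fell with them, from 90.6, 76.1, 57.6 and 82.1 CPM to 20.2, 24.1, 23.9 and 21.8 CPM (−1.80 ± 0.18, FDR = 1.78e-07). Lss was the least secure (−1.10 ± 0.19, FDR = 0.0192), and lost its call without XX 24 h DMSO replicate 9 (−1.05) or XX 72 h DMSO replicate 4 (−1.04) or 8 (−0.95). It also lost its call with DESeq2 (−0.89), with RLE size factors (−0.99) and without sample weights (−1.01). Insig1 changed by −0.60 ± 0.20 and passed only the no-change test, by which 29.3% of all genes were lower.

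**Figure D2:**
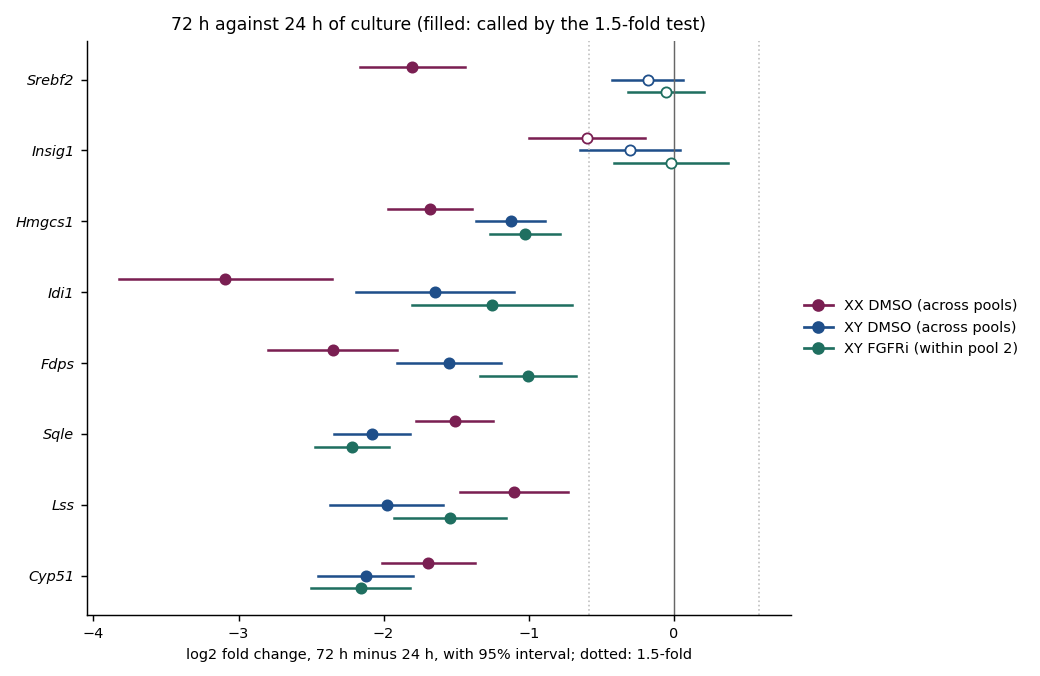
Log2 fold change from 24 h to 72 h of culture (horizontal axis, 72 h minus 24 h) for the 8 genes (vertical axis) in XX DMSO, XY DMSO and XY FGFRi, with 95% intervals. Filled points were called beyond 1.5-fold, and dotted lines mark 1.5-fold. Srebf2 is at −1.80 in XX and at −0.18 and −0.05 in XY, whereas the 6 enzymes lie below −1 in each comparison.

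Markers of other gonadal cells were low but moved over the same interval. The sum of the 5 Leydig cell markers was 6.11 to 10.7 CPM in XX 24 h DMSO and 23.2 to 31.9 CPM in XX 72 h DMSO, 6.50 to 12.9 CPM and 16.5 to 27.7 CPM in XY DMSO at those times, and 4.32 to 12.6 CPM and 12.8 to 16.9 CPM in XY FGFRi. Insl3 was at 0 in all 40 libraries and Cyp17a1 in 16. The 4 interstitial markers summed to 9.89 to 17.7 CPM and 40.4 to 72.5 CPM in XX, and to 16.4 to 23.3 CPM and 45.5 to 73.4 CPM in XY. Pre-granulosa markers summed to 11.3 to 17.9 CPM and 19.2 to 46.7 CPM in XX, and overlapped between times in XY. The sum of the 3 endothelial markers moved downwards, as the 6 enzymes did, from 59.5 to 108 CPM to 5.12 to 9.62 CPM in XX, from 30.6 to 94.3 CPM to 14.1 to 21.2 CPM in XY DMSO, and from 36.3 to 63.2 CPM to 12.8 to 16.2 CPM in XY FGFRi. Most of that sum was Pecam1 (4.25 to 126 CPM), which germ cells are also known to express, and Cdh5 was at 0 in 8 libraries and Kdr in 9. Blood markers also moved downwards without overlap in XY FGFRi (49.4 to 65.5 CPM, then 9.02 to 45.9 CPM), and overlapped between times in both DMSO comparisons. The germ cell marker sum went from 4468 to 5611 CPM to 2406 to 3369 CPM in XY FGFRi and from 2610 to 3209 CPM to 2070 to 2351 CPM in XX, and overlapped in XY DMSO. The part of any of these cell types in the fall of the 6 enzymes was not tested. In RNA from a sorted population, fewer cells that use a gene and less of its RNA in each cell cannot be told apart.

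Of the other 31 pathway genes tested, 12 fell and 1 rose in XY DMSO (11.3% of all genes fell and 16.0% rose), and 16 fell and 1 rose in XX DMSO (11.9% and 10.3%). In XY FGFRi, within one pool, 6 fell and 1 rose, against 14.2% and 19.2% of all genes, and 6 of 31 is near that background. Pmvk, the phosphomevalonate kinase, had a log2 fold change of −1.82 ± 0.32 in XY DMSO (22.8 to 6.43 CPM) and of −2.43 ± 0.28 in XX DMSO (59.3 to 12.2 CPM). Ebp, a sterol isomerase, had one of −2.76 ± 0.53 in XY DMSO (11.8 to 1.96 CPM, with 1 library of the 72 h group at 0) and of −2.49 ± 0.35 in XX DMSO (37.6 to 6.86 CPM). The gene that rose in XX DMSO was Mylip, a ubiquitin ligase that acts on lipoprotein receptors (1.55 ± 0.39).

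By step of the route, 7 of 8 mevalonate genes fell in XY DMSO, 7 of 8 in XX DMSO and 5 of 8 in XY FGFRi, beside the 11.3%, 11.9% and 14.2% of all genes. Those not called in DMSO were Mvd in XY (−0.45) and Acat2 in XX (−0.33). Of the 12 sterol genes, 6 fell in XY DMSO, 10 in XX DMSO and 5 in XY FGFRi. Of the 7 regulators in the wider list, 2 fell in XY DMSO, 1 in XX DMSO and 1 in XY FGFRi. These counts include members of the 8. Dhcr7 changed by −0.70 ± 0.11 in XY, which was not called, and by −2.36 ± 0.15 in XX, and Tm7sf2, a sterol reductase, by −2.67 ± 0.42 in XY and −0.53 ± 0.26 in XX, where it was not called.

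**Figure D3:**
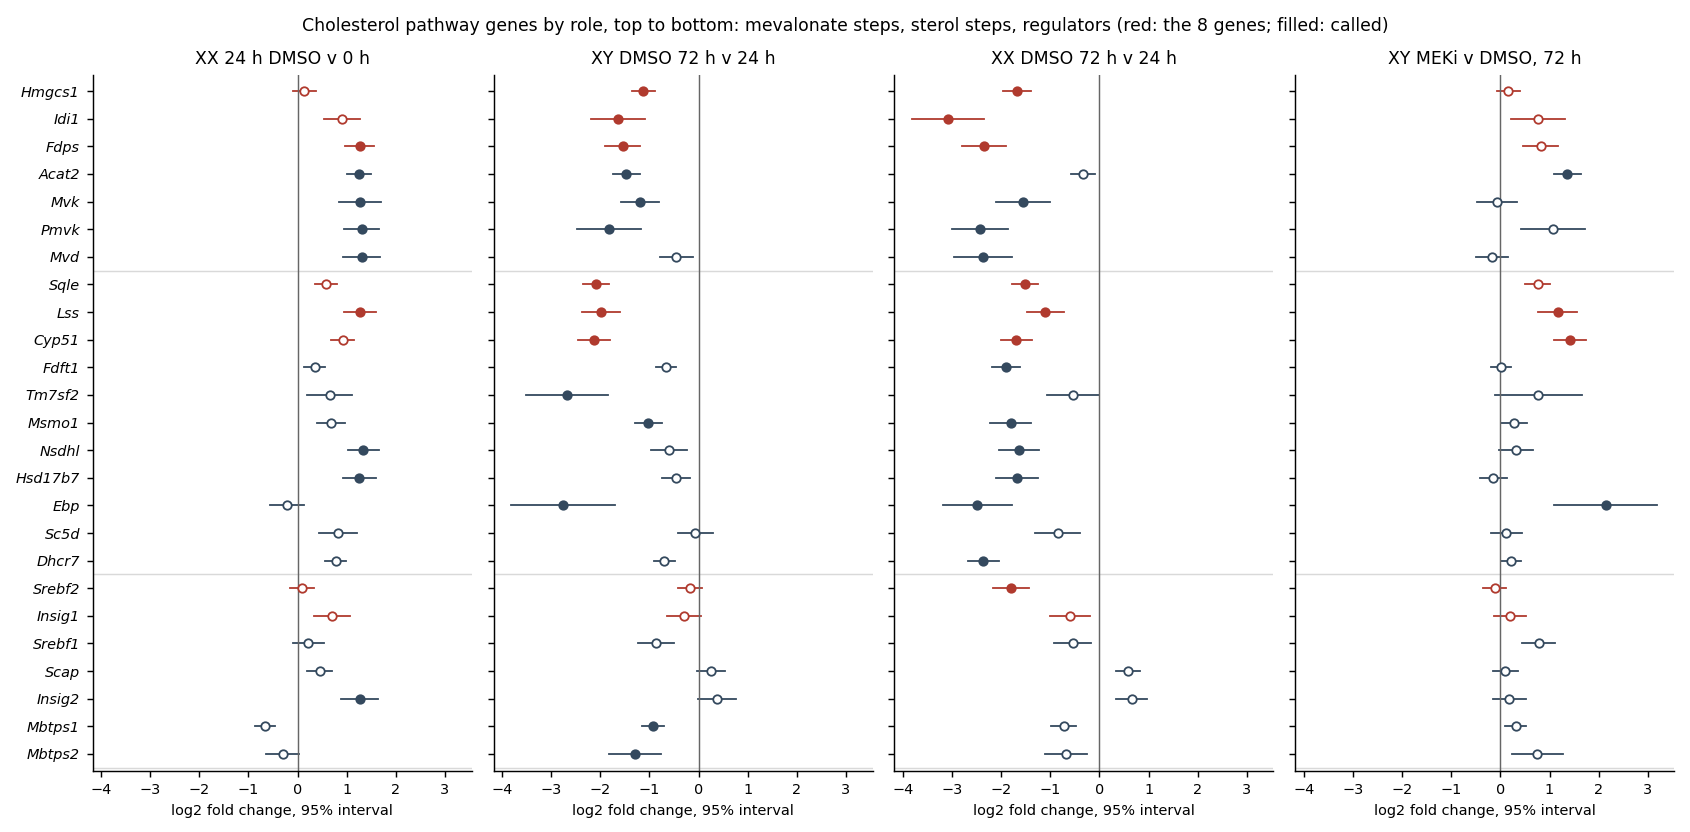
Log2 fold changes (horizontal axes, with 95% intervals, one scale for all panels) of genes of the mevalonate steps, the sterol steps and the regulators, from top to bottom, in 4 comparisons. The 8 genes are in red and filled points were called beyond 1.5-fold. Most mevalonate genes lie right of 0 at 24 h v 0 h in XX and left of 0 at 72 h v 24 h in both sexes, and in the MEKi panel Ebp, Cyp51, Acat2 and Lss are filled to the right of 0.

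The sexes were compared at each time, each time within one pool. At 0 h none of the 8 genes was called (3.0% of all genes were, in either direction). The no-change test passed Sqle (0.45) and Lss (0.48), higher in XY, and Srebf2 (−0.38), lower in XY, where 13.5% of all genes were higher and 10.7% lower by it. Sertoli markers summed to 13.2 to 29.2 CPM in XY and 4.17 to 10.02 CPM in XX at 0 h, and Leydig cell markers to 17.2 to 26.6 CPM and 8.34 to 10.4 CPM. At 24 h none was called either (9.99% of all genes), and Hmgcs1 (0.31) and Idi1 (−0.45) passed the no-change test, which 18.9% of all genes passed as higher and 19.8% as lower. The 8 genes thus did not exceed the background at 24 h. The sums at 24 h were 16.1 to 105.7 CPM in XY and 4.36 to 10.8 CPM in XX for Sertoli markers, 18.5 to 33.0 CPM and 11.3 to 17.9 CPM for pre-granulosa markers, and 3338 to 4750 CPM and 2610 to 3209 CPM for germ cell markers, without overlap, and the part of these cell types was not tested. The Srebf2 interval at 24 h was −0.12 to 0.37.

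At 72 h Srebf2 was higher in XY, as the only one of the 8 called (22.8% of all genes were called higher and 18.1% lower). Its levels were 65.0, 85.1, 75.7 and 77.6 CPM in XY DMSO and 20.2, 24.1, 23.9 and 21.8 CPM in XX DMSO, which gave a log2 fold change of 1.75 ± 0.18 (FDR = 1.42e-07). Every XY library was far above every XX library. Sertoli markers summed to 21.7 to 31.9 CPM in XY and 6.63 to 20.5 CPM in XX, endothelial markers to 14.1 to 21.2 CPM and 5.12 to 9.62 CPM, and germ cell markers to 2962 to 3422 CPM and 2070 to 2351 CPM, and their part was not tested. The other genes split: Hmgcs1 (0.86, FDR = 0.0704), Idi1 (1.00) and Insig1 (0.63) were higher and Lss (−0.70), Cyp51 (−0.51) and Sqle (−0.43) lower by the no-change test only, and Fdps (0.51) passed neither. By that test 36.2% of all genes were higher and 31.2% lower, so 7 of 8 is near the background. Hmgcs1 became called without XX 72 h DMSO replicate 11 (1.00) or XY 72 h DMSO replicate 4 (0.96).

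The difference between the sexes in the step from 24 h to 72 h was tested itself, a contrast in which a constant shift between pools cancels. Srebf2 was again the only one of the 8 called, at 1.62 ± 0.22 (FDR = 0.000105; 16.2% of all genes were called higher and 9.93% lower). Idi1 followed at 1.45 ± 0.46 (FDR = 0.103), and was called without XY 24 h DMSO replicate 5 (1.69). With the counts of its pseudogene copies added, the Idi1 value was 1.01 ± 0.35 and was not called. The 95% interval for Cyp51 was −0.89 to 0.03 and for Insig1 −0.23 to 0.83.

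Srebf2 counts could include a neighbour's reads. Gm49502, a transcript of uncertain class with 780 counts in all libraries against 6706 for Srebf2, lies on the same strand within the gene, as does Mir33, listed at 0. Among the other pathway genes at 72 h, 9 of 31 were higher in XY and 7 lower, near the 22.8% and 18.1% of all genes, so the counts are no result about the pathway. Those higher included Fdft1 (squalene synthase, 1.78), Mvd (1.94), Dhcr7 (1.51), Hsd17b7 (1.46) and Msmo1 (1.30). Those lower were Tm7sf2 (−2.44), Ebp (−1.96), Acat2 (−1.48), Pdss1 (−1.65), Scap (−1.17), Insig2 (−1.24) and Mbtps2 (−1.18).

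FGFR and MEK inhibition were each compared with DMSO in XY gonads, at the single dose of 500 nM. The 2 drugs have different targets, so a like dose is not a like inhibition. At 24 h none of the 8 genes was called under MEKi (25 genes, 0.164% of all, were called in either direction, both groups in pool 1). Cyp51 was 123, 109, 106 and 126 CPM under MEKi against 85.6, 73.5, 97.4 and 88.8 CPM in DMSO. Each MEKi library was above each DMSO library, and Cyp51 alone passed the no-change test (0.42 ± 0.11, FDR = 0.0141 by limma eBayes), as did 2.24% of all genes upwards. Markers of blood cells summed to 151 to 389 CPM under MEKi and 14.01 to 91.8 CPM in DMSO at 24 h, with Ptprc at 0 in 26 of the 40 libraries, and their part was not tested.

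FGFRi at 24 h called none either (0.262% of all genes in either direction), but all 8 values were negative, with a median of −0.54 against −0.03 over all genes. By the no-change test 6 were lower, against 3.59% of all genes: Insig1 (−0.98), Lss (−0.71), Cyp51 (−0.62), Hmgcs1 (−0.46), Srebf2 (−0.42) and Sqle (−0.36). Insig1 was 91.5, 79.4, 67.3 and 82.8 CPM under FGFRi and 173, 163, 129.6 and 158 CPM in DMSO. The groups did not overlap for Insig1, Lss, Cyp51, Hmgcs1 and Idi1, but the share of all genes without overlap was not counted. As FGFRi 24 h libraries were in pool 2 and DMSO 24 h libraries in pool 1, drug and pool cannot be told apart here.

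At 72 h, where FGFRi and DMSO shared pool 2, none of the 8 was called (1 gene was, Abca1, or 0.00656% of all), and Insig1 was the only one to pass the no-change test (0.629% of all genes were lower by it). Insig1 was 80.1, 63.6, 100.5 and 79.8 CPM under FGFRi and 152, 103, 99.5 and 160.4 CPM in DMSO, with 1 overlap between the groups (−0.70 ± 0.17, FDR = 0.0272 by limma eBayes). Of the rest, 6 were negative, and Fdps was at 0.13 (95% interval −0.25 to 0.51). Cyp51 (−0.65, −1.05 to −0.26) and Sqle (−0.49, −0.78 to −0.20) did not overlap between the groups and missed both thresholds. Abca1, an LXR target that exports cholesterol, was higher under FGFRi at 72 h (1.39 ± 0.12). It was also higher at 24 h (1.42 ± 0.17), where drug and pool cannot be told apart. Interstitial markers summed to 30.2 to 36.8 CPM under FGFRi and 45.5 to 73.4 CPM in DMSO at 72 h, and their part was not tested.

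MEKi at 72 h raised 2 of the 8 genes, Cyp51 and Lss (4.01% of all genes were called higher and 5.11% lower). Cyp51 was 62.5, 54.6, 51.8 and 47.8 CPM under MEKi and 17.7, 20.3, 18.4 and 24.3 CPM with DMSO alone, giving a log2 fold change of 1.41 ± 0.16 (FDR = 0.000106). Lss was 30.5, 40.1, 44.0 and 45.1 CPM under MEKi and 17.7, 15.3, 15.8 and 28.3 CPM in DMSO, a change of 1.16 ± 0.19 (FDR = 0.0278). The groups did not overlap for either gene, though 1 DMSO library reached 28.3 CPM for Lss. Lss lost its call without XY 72 h DMSO replicate 2, 4 or 5 or XY 72 h MEKi replicate 4 (1.06 to 1.15), and under 4 other settings, while Cyp51 kept its call in each alternative run.

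Idi1 (0.76), Fdps (0.83) and Sqle (0.76) joined them by the no-change test, which 22.2% of all genes passed upwards. Sqle was 127, 85.7, 91.6 and 108 CPM under MEKi and 61.5, 48.8, 58.0 and 65.1 CPM in DMSO, without overlap. The median of the 8 was 0.76, against 0.01 over all genes. Hmgcs1 (0.16, 95% interval −0.07 to 0.39), Insig1 (0.19, −0.13 to 0.52) and Srebf2 (−0.12, −0.35 to 0.11) passed neither test. Leydig cell markers summed to 8.94 to 16.7 CPM under MEKi and 16.5 to 27.7 CPM in DMSO at 72 h, and their part was not tested.

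**Figure D4:**
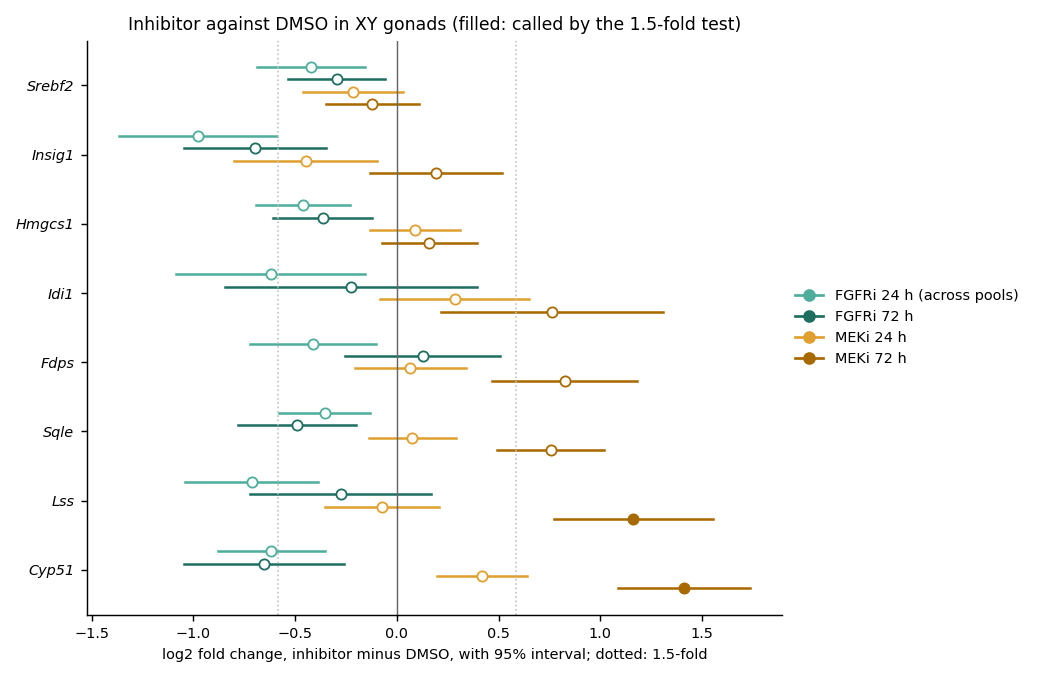
Log2 fold change of inhibitor against DMSO in XY gonads (horizontal axis) for the 8 genes (vertical axis), with 95% intervals. Filled points were called beyond 1.5-fold. Cyp51 at 1.41 and Lss at 1.16, both under MEKi at 72 h, are the filled points, and all 8 FGFRi values at 24 h lie left of 0.

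Whether MEKi acted differently at 72 h and 24 h was tested as the difference of those effects. None of the 8 was called (1.88% of all genes in either direction), although 5 passed the no-change test (13.7% of all genes were higher by it): Lss (1.24 ± 0.24), Cyp51 (0.99 ± 0.20), Fdps (0.76 ± 0.22), Sqle (0.68 ± 0.17) and Insig1 (0.64 ± 0.24). With library totals Lss became called (1.39). Of the other 31 pathway genes, 3 were higher under MEKi at 72 h and 0 lower (4.01% and 5.11% of all genes), and those higher included Ebp (2.15 ± 0.52, 1.96 to 8.24 CPM) and Acat2 (an acetoacetyl-CoA thiolase, 1.36 ± 0.13). In the difference between times 2 of the 31 were called, among them Acat2 (1.30 ± 0.18, FDR = 0.0105).

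Set against FGFRi at 72 h, within pool 2, MEKi gonads had higher Cyp51 (2.06 ± 0.16), Lss (1.44 ± 0.17) and Sqle (1.25 ± 0.13), 3 of 8 (5.71% of all genes were called higher and 6.98% lower). By the no-change test 7 were higher, against 25.4% of all genes, and Srebf2 was not (0.18, 95% interval −0.05 to 0.40). Of the other 31 pathway genes, 4 were higher, including Acat2 (1.22) and Stard4, a cytosolic sterol carrier (1.19), and 1 was lower, Mylip (−1.56). Interstitial markers were also higher under MEKi (42.4 to 81.6 CPM against 30.2 to 36.8 CPM), and their part was not tested. Both comparisons use the MEKi libraries, so they are not independent of MEKi v DMSO.

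MEKi-treated XY germ cells at 72 h were also set against XX germ cells in DMSO. Srebf2 (1.63 ± 0.17), Idi1 (1.76 ± 0.37), Fdps (1.33 ± 0.22) and Hmgcs1 (1.02 ± 0.14) were higher (17.2% of all genes were called higher and 12.8% lower). Srebf2 was 66.0, 72.5, 70.1 and 65.3 CPM under MEKi, each above the 20.2 to 24.1 CPM of the XX libraries. Hmgcs1 lost its call without XX 72 h DMSO replicate 8 (0.89). Cyp51 (0.90, FDR = 0.0767) became called without XX 72 h DMSO replicate 11 (1.07) or XY 72 h MEKi replicate 5 (0.95). By the no-change test all 8 were higher, against 33.8% of all genes. Leydig cell markers were lower under MEKi (8.94 to 16.7 CPM against 23.2 to 31.9 CPM in XX), endothelial markers (9.85 to 26.3 CPM against 5.12 to 9.62 CPM) Sertoli markers (21.7 to 68.1 CPM against 6.63 to 20.5 CPM) and germ cell markers (2384 to 3680 CPM against 2070 to 2351 CPM) higher, and their part was not tested.

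Counts of Idi1 and Fdps are uncertain because near copies take reads. At least 5% of 50-base stretches of 4 pseudogene transcripts matched Idi1, and these held 1864 counts over all libraries against 1322 for Idi1 itself. Idi1-ps1, whose stretches were all found in Idi1, held 1813 of them. For Fdps, 5 copies held 4242 counts against 3889, with 3527 on Gm3571. Insig1 had 1 copy with 18 counts, and the other 5 genes had none at this limit. With copies added to their genes, a setting chosen after seeing the data, Fdps became called at 24 h v 0 h in XY (1.11 ± 0.13, FDR = 0.00463) and Idi1 lost its call for XY MEKi v XX at 72 h (1.11, FDR = 0.098). Every fall of Idi1 and Fdps from 24 h to 72 h remained called.

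**Figure D5:**
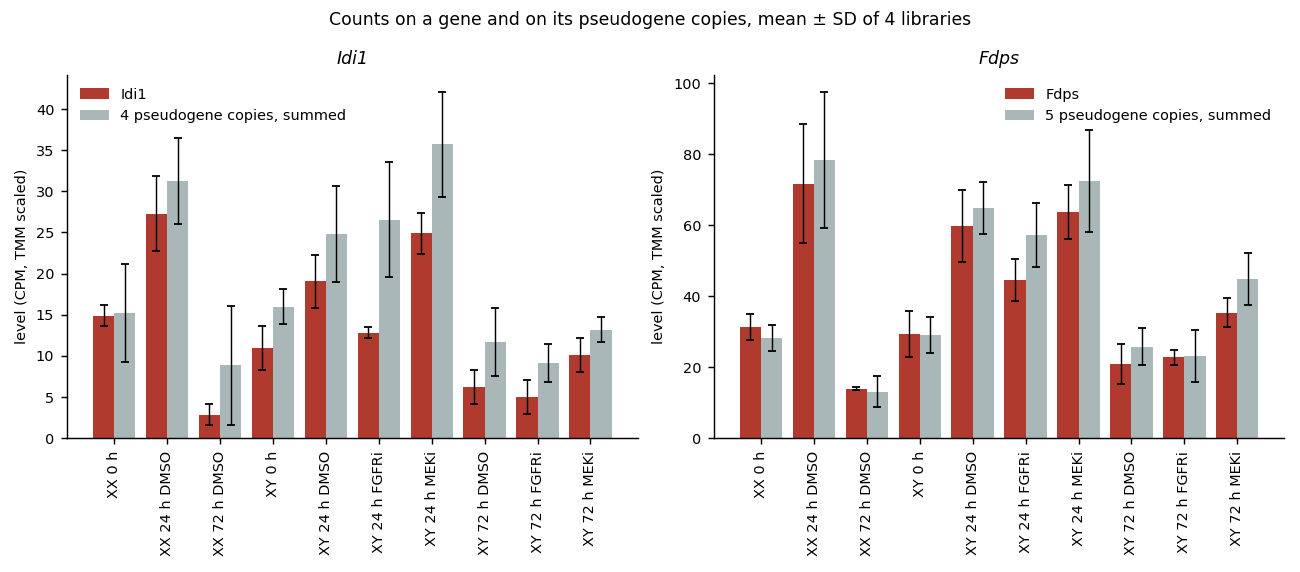
Level (vertical axes, CPM after TMM scaling, from 0) of Idi1 and Fdps and of the sum of their pseudogene copies in the 10 groups, as mean and SD of 4 libraries. In XX 24 h DMSO, Idi1 averages 27.3 CPM and its 4 copies 31.2 CPM, and both are lower in XX 72 h DMSO, at 2.89 CPM and 8.89 CPM.

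The 8 genes were last compared by pattern. Over the 40 libraries, Pearson's r of log2 CPM between pairs of the 8 ran from 0.20 to 0.93 with a median of 0.71 (28 pairs), and 15 pairs were over 0.7. Sqle and Cyp51 were the closest pair, and Insig1 was the least like the rest. These values describe libraries that share groups and pools, and carry no test. The mean of the 8 genes (log2 CPM, each centred on its own mean) was 0.02 in XX 0 h and 0.03 in XY 0 h, 0.69 and 0.73 in the 24 h DMSO groups, and −0.96 and −0.58 in the 72 h DMSO groups. It was 0.79 under MEKi and 0.19 under FGFRi at 24 h, and 0.04 and −0.95 at 72 h. Every XY 72 h MEKi library (0.003 to 0.07) was above every XY 72 h DMSO library (−0.74 to −0.31).

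Of the 15252 genes ranked by r with this mean, 5 of the other 31 pathway genes were among the first 100. They included Msmo1 with rank 22 (r = 0.855), Dhcr7 with rank 25 (r = 0.854) and, as the lowest ranked of the 5, Pmvk with rank 68 (r = 0.825). Outside the pathway the 10 nearest, from r = 0.898 to 0.862, were Tuba1a, Gm42047, Rdh11, Gm3571, Kpna2, Igf2bp3, Cnpy2, R3hdm4, E2f3 and Armc1. Gm3571 is the Fdps copy named above.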

How the data were processed

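The authors sequenced the 3′ ends of poly(A) RNA with a sample index and a molecular identifier added at priming, aligned and counted the reads with Rsubread and scPipe on GRCm39 with GENCODE annotation, using strand, and deposited counts per gene in 40 libraries; versions, and the GENCODE release, are not given in the sources used here. Symbols were matched by Ensembl identifier: 40391 of 42422 genes matched, and the other 2031 held 1.05% of counts. The 40 libraries (1178953 to 5199153 counts, median 2135128.5) were grouped by their labels, 4 per group. The depth limits precision for Idi1 most. Replicates are labelled as separate pools of gonads. Genes kept by filterByExpr (15252) were fitted in R 4.3.3 with limma 3.58.1 (voom with quality weights, TMM factors from edgeR 4.0.16, 1 mean per group over all libraries, treat against 1.5-fold, Benjamini-Hochberg FDR under 0.05). Intervals are unadjusted 95% intervals. Log2 CPM for correlations used a prior count of 2.

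On simulated counts for MEKi v DMSO at 72 h (15252 genes, 50 changed per fold), the test recovered 26% of genes changed 2-fold, 84% at 3-fold, 96% at 4-fold and 98% at 6-fold, and called 0 unchanged genes. The changed genes were drawn only from those above a minimum mean count, so recovery of genes with fewer counts was not measured. Alternatives were limma eBayes, edgeR glmTreat, DESeq2 1.42.0, other scalings, no filter, no sample weights, only the groups compared, a replicate block, subtraction of the shared index, each library left out and, added later, pseudogene copies. Named genes were the 8 members, the pathway, export and marker lists, and the 10 genes nearest in pattern. The members and lists were chosen with earlier results of these data known. One pathway gene did not pass the filter, and some pathway genes, though counted, are not reported by name here. Promoter sequences are from RefSeq.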

Additional observations from a re-analysis of the deposited data

Results flagged for a closer look

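Srebf2 differed between the sexes in its step from 24 h to 72 h: the difference of the log2 fold changes was 1.62 (XY minus XX), from −1.80 in XX and −0.18 in XY.

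In a scan of 80 sets of 4 libraries (8 genes in 10 groups) for a library far from the other 3, 2 sets stood out, and chance gives about 1 in 20 sets. Sqle was 230.3 CPM in XY 0 h replicate 5, and 197 to 199 CPM in the other 3 libraries. Srebf2 was 71.8 CPM in XY 24 h FGFRi replicate 5, and 59.9 to 61.6 CPM in the other 3.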

How the results depend on the processing

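Of 32 called differences of the 8 genes, 22 kept their call in every alternative run, 38 of 1632 refits of called differences lost one, and 0 changed sign. Numbers below are genes called, of the 8 and then of the 39 pathway genes tested. The cause of a change was not tested, except that the no-change test (limma eBayes) asks for no fold and so calls more. It called 3 and 16 for XY v XX at 0 h (0 and 2 by the main test), 2 and 20 at 24 h (0 and 4), and 7 and 29 at 72 h (1 and 17). It called 7 and 28 in XY (0 and 3) and 6 and 26 in XX (2 and 9) at 24 h v 0 h. It called 29 pathway genes (19) in XY DMSO and 24 (13) in XY FGFRi at 72 h v 24 h. FGFRi v DMSO had 6 and 14 at 24 h and 1 and 2 at 72 h (each 0 by the main test), and MEKi v DMSO 1 and 3 at 24 h (0) and 5 and 19 at 72 h (2 and 5). MEKi v FGFRi had 7 and 26 (3 and 8), XY MEKi v XX 8 and 32 (4 and 18), the sex difference of the 24 h to 72 h step 6 and 24 (1 and 12), that of the 0 h to 24 h step 2 pathway genes (0), and the MEKi effect at 72 h less 24 h 5 and 13 (0 and 2).

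Where the main test called 0 of the 8, an unadjusted p under 0.05 was reached by 2 genes for XY 24 h v 0 h, 1 for FGFRi at 24 h, 2 for the MEKi difference between times and 0 in the other 5 comparisons. edgeR glmTreat called 2 for XY 24 h v 0 h (with 6 of the pathway), 2 for XY v XX at 72 h and 2 for the sex difference of the 24 h to 72 h step, and no gene where the main test had 0 otherwise; DESeq2 called 0 in all of these 8. For MEKi at 72 h DESeq2, RLE size factors, no filter and no sample weights each left 1 of the 8, and no filter left 2 of the pathway. For XY v XX at 0 h the pathway count was 1 with DESeq2 or the index share subtracted, and 0 with no filter or no sample weights. The MEKi difference between times had 0 pathway genes with DESeq2 and 1 with RLE, no filter or no sample weights. Library totals gave 2 of the 8 for XY v XX at 72 h, 3 for XY FGFRi 72 h v 24 h, where DESeq2, RLE and no filter gave 4, and 1 for the MEKi difference. Pseudogene copies gave 1 for XY 24 h v 0 h.

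The replicate block called 1 of the 8 for XY 24 h v 0 h, 0 (and 3 of the pathway) for XX 24 h v 0 h, 6 for XX 72 h v 24 h (7 by the main test, with Lss lost), and 1 (and 8) for XY MEKi v XX. For the pathway it called 1 for XY v XX at 0 h, 11 at 72 h, 6 for the sex difference of the later step and 1 for the MEKi difference. In 7 comparisons with 3 or more same-numbered pairs, r of the deviations ran from −0.12 to 0.12 and in 0 was every r over 0.1, so the numbers were not read as pairs. Leaving out 1 library at a time gave 1 to 2 of the 8 and 3 to 5 of the pathway for MEKi at 72 h, 0 to 1 and 1 to 4 for XY 24 h v 0 h, 1 to 2 of the 8 for XY v XX at 72 h and for the sex difference of the later step, and in the pathway 0 to 2 for XY v XX at 0 h and 1 to 2 for the MEKi difference.

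Sign changes came only in differences near 0 that were not called. Insig1 in XY FGFRi 72 h v 24 h was 0.02 with edgeR, 0.10 with DESeq2 and without the filter (0.099), 0.20 with library totals, 0.055 with RLE and 0.0056 without weights, and −0.11 to 0.13 leaving out 1 library. Srebf2 there was 0.032 with DESeq2, 0.17 with library totals, 0.021 with RLE, 0.070 without the filter, and −0.092 to 0.0041 leaving out 1. Insig1 in the sex difference of the 0 h to 24 h step was 0.00683 with DESeq2, 0.13 without the filter, and −0.23 to 0.10 leaving out 1, and Idi1 −0.26 to 0.081. In the MEKi difference Hmgcs1 was −0.039 with DESeq2, −0.00923 with RLE and −0.064 to 0.19 leaving out 1, and Srebf2 −0.027 with DESeq2, −0.078 with the replicate block and −0.012 to 0.17. Cyp51 in XY v XX at 24 h was 0.063 with the replicate block and −0.16 to 0.030 leaving out 1. With copies added, Fdps in FGFRi v DMSO at 72 h was −0.048. Leaving out 1 library gave −0.42 to 0.033 for Idi1 there, and for MEKi at 24 h −0.023 to 0.18 for Fdps, −0.17 to 0.071 for Lss and −0.0076 to 0.14 for Sqle. Idi1 did not pass the filter for XY v XX at 72 h with only the groups compared, so that setting has no value. Depth limits Idi1 most, at 2 to 7 counts per library in XX 72 h DMSO.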
